A study of Mus musculus with 4 samples.

Results

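The miR-23, miR-27 and miR-24 family is encoded by a pair of paralogous gene clusters, one on chromosome 8 (Mir23a, Mir27a and Mir24-2) and one on chromosome 13 (Mir23b, Mir27b and Mir24-1). It was followed here in extracellular vesicles, small membrane-bound carriers of RNA and protein shed into the medium, from C2C12 cells, an established mouse myoblast line. The rows of the deposited table were taken by their mature IDs (MIMAT0000532 for miR-23a-3p, MIMAT0000125 for miR-23b-3p, MIMAT0000537 for miR-27a-3p, MIMAT0000126 for miR-27b-3p and MIMAT0000219 for miR-24-3p), together with the other arm of each hairpin, which had to start within 60 bases on the same strand. This gave 12 of 2110 rows, 6 of them 3p arms and 6 of them 5p arms, with entries 21 to 23 bases long. The question of the series was which miRNAs differ when the vesicles come from muscle cells damaged by an oxidant. The damaged group (2 libraries) came from C2C12 cells treated with hydrogen peroxide, and the WT group (2 libraries) from C2C12 cells whose treatment label is WT. Both groups carry the genotype label WT and were grown with 10% fetal bovine serum, and no source used here gives the peroxide dose or exposure time. The libraries held 4577668 counts (WT replicate 1), 7638663 counts (WT replicate 2), 6901394 counts (damaged replicate 1) and 7350345 counts (damaged replicate 2). Whether the replicates are separate cultures is not stated in the labels. The p-values therefore rest on library-to-library spread that may be technical only.

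A miRNA cluster is copied into a single primary transcript, from which each hairpin is cut out and trimmed to a short duplex. One arm of the duplex is usually kept by an Argonaute protein and pairs with target mRNAs through its seed, the bases 2 to 8, while the other arm is mostly degraded. In mouse muscle, miR-23a is known to act on mRNAs of the ubiquitin ligases of muscle atrophy, miR-27b on Pax3 mRNA of muscle progenitors, and miR-24 has been linked to myoblast differentiation. The same clusters are also known from endothelial cells.

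The sequences of the 3p arms show how closely the family is related and why some rows cannot be separated by their reads. They come from RefSeq on GRCm38.p6, the assembly behind mm10, which matched 11 of the 12 rows by position, and capitals mark the seed.
miR-23a-3p: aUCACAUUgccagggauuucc
miR-27a-3p: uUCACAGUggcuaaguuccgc
miR-27b-3p: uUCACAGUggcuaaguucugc
miR-24-3p: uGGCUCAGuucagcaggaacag
miR-3074-5p: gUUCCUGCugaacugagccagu
The seeds of miR-23a-3p and miR-27a-3p are identical in 6 of 7 bases, whereas the full sequences share 11 of 21. miR-27a-3p and miR-27b-3p share their seed and differ in 1 of 21 bases (C19U, counted from the 5′ end of miR-27a-3p), so a short or misread fragment of one can be counted for the other. miR-24-3p is identical at both loci. miR-3074-5p, made from the opposite strand, is shown because 20 of its bases are complementary to miR-24-3p. No other row with a RefSeq sequence carried the seed of miR-23a-3p or of miR-27a-3p, and the 4 others with that of miR-24-3p (miR-6413, miR-6410, miR-6369 and miR-5124b) had 0 counts in every library.

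The hairpins of chromosome 8 span 404 bases (chr8:84208518-84208921, plus strand, mm10), with Mir23a and Mir27a between annotated genes and Mir24-2 touching an exon of the long non-coding RNA Gm26532. Those of chromosome 13 span 792 bases (chr13:63300484-63301275, plus strand) within 2010111I01Rik, where Mir23b lies in an intron and Mir27b and Mir24-1 overlap exons. Introns of Fancc run through the same place on the opposite strand. The hairpins of miR-23a, miR-27a and miR-27b are given with both annotated mature arms in capitals, the 5p arm first.
Mir23a: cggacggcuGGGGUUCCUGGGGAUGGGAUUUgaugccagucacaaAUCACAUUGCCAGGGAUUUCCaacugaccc
Mir27a: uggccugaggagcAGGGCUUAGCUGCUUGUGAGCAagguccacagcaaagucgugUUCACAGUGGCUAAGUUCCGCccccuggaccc
Mir27b: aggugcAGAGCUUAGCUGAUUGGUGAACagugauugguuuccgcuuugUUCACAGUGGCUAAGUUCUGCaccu

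**Figure D1:**
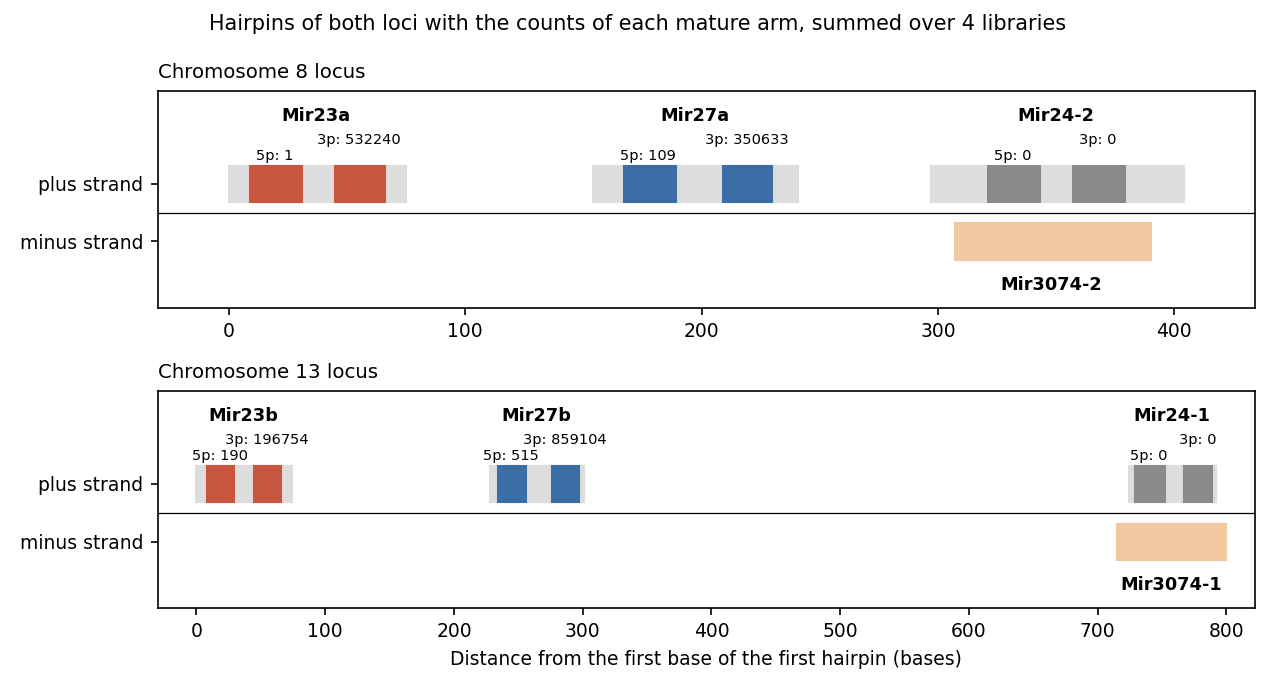
Position of the hairpins at both loci, in bases from the first base of the first hairpin, with plus-strand hairpins in grey, mature arms in red (miR-23), blue (miR-27) or dark grey (miR-24) and minus-strand hairpins in orange. The number above each arm is its count summed over 4 libraries, and all 4 miR-24 arms, which lie opposite Mir3074-1 and Mir3074-2, stand at 0.

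miR-24 could not be measured in these files. Both rows of miR-24-3p (chr8:84208875-84208896 and chr13:63301251-63301272), the miR-24-2-5p row and the miR-24-1-5p row had 0 counts in all 4 libraries, while their cluster neighbours had up to 859104 counts. Each of these 4 rows shares 20 bases with a mature miR-3074 entry on the opposite strand, and the miR-23 and miR-27 rows share none. Over the whole table, 105 of 106 rows with such an overlap were at 0 in every library (99.1%), against 50.1% of the 2004 rows without one. The exception was miR-129b-3p, with 6 counts in damaged replicate 2. The counting command in the file header sets neither a strand nor the counting of reads that overlap several entries. A count of 0 here therefore gives no limit on how much miR-24 the vesicles held, and miR-24 enters no comparison.

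The other members were abundant in both groups. The WT libraries gave 7.85% (replicate 1; exact 95% interval 7.83 to 7.88) and 6.96% (replicate 2; 6.95 to 6.98) of their counts to the family's rows, and the damaged libraries 7.04% (replicate 1; 7.02 to 7.06) and 7.65% (replicate 2; 7.63 to 7.67). The groups overlap, at mean shares of 7.41% ± 0.627 for WT and 7.35% ± 0.432 for damaged (SD, n = 2). The smallest p that an exact two-sided permutation test can reach with 2 libraries a group is 0.333, and it gave 1 for this share. By mean level over the 4 libraries, miR-27b-3p ranked 6, miR-23a-3p 9, miR-27a-3p 14 and miR-23b-3p 26 among all rows. Levels below are in CPM, counts scaled to library depth, after TMM scaling. No length correction was applied, since these entries are nearly equal in length. Whether different sequences are counted equally well was not tested, so ranks and ratios between rows describe counts.

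miR-23 levels were higher in both damaged libraries than in both WT libraries, at both loci. miR-23a-3p (chr8:84208563-84208583) stood at 14659 CPM in WT replicate 1, 16784 CPM in WT replicate 2, 21587 CPM in damaged replicate 1 and 25289 CPM in damaged replicate 2. The groups do not overlap, and the lowest damaged library lies above the highest WT library by more than the WT libraries differ from each other. The means were 15722 ± 1502 CPM and 23438 ± 2618 CPM (SD, n = 2), a 1.49-fold difference with a log2 fold change of 0.58 ± 0.13 (SE) that did not pass edgeR's quasi-likelihood test (Benjamini-Hochberg adjusted p = 0.0531). miR-23b-3p (chr13:63300529-63300549) stood at 5462 CPM and 6418 CPM in WT replicates 1 and 2 and at 7973 CPM and 9113 CPM in damaged replicates 1 and 2. It followed the same order over the 4 libraries as its paralog, at a lower level, and its groups do not overlap either. Its log2 fold change was 0.52 ± 0.14 (SE; edgeR adjusted p = 0.0669). Because reads of close paralogs may be counted for either row, the pair was also summed: miR-23-3p then averaged 21662 ± 2179 CPM for WT and 31981 ± 3424 CPM for damaged (SD, n = 2), with a log2 fold change of 0.54 ± 0.16 (SE; edgeR adjusted p = 0.0877).

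miR-27 levels lay on the other side, although miR-27 hairpins sit next to miR-23 hairpins in each cluster. miR-27b-3p (chr13:63300760-63300780), the most abundant member, stood at 42896 CPM in WT replicate 1, 33486 CPM in WT replicate 2, 28538 CPM in damaged replicate 1 and 28542 CPM in damaged replicate 2. The damaged libraries are nearly equal and both lie below WT, and WT replicate 1 is the highest of all. The log2 fold change was -0.42 ± 0.15 (SE; edgeR adjusted p = 0.124). miR-27a-3p (chr8:84208727-84208747) stood at 16512 CPM and 13117 CPM in WT replicates 1 and 2 and at 12738 CPM and 11809 CPM in damaged replicates 1 and 2. The gap between damaged replicate 1 and WT replicate 2 is smaller than the gap between the WT libraries, and the log2 fold change was -0.27 ± 0.15 (SE; edgeR adjusted p = 0.274). Summed, miR-27-3p averaged 53006 ± 9054 CPM for WT and 40813 ± 654 CPM for damaged (SD, n = 2), with a log2 fold change of -0.39 ± 0.14 (SE; edgeR adjusted p = 0.129).

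**Figure D2:**
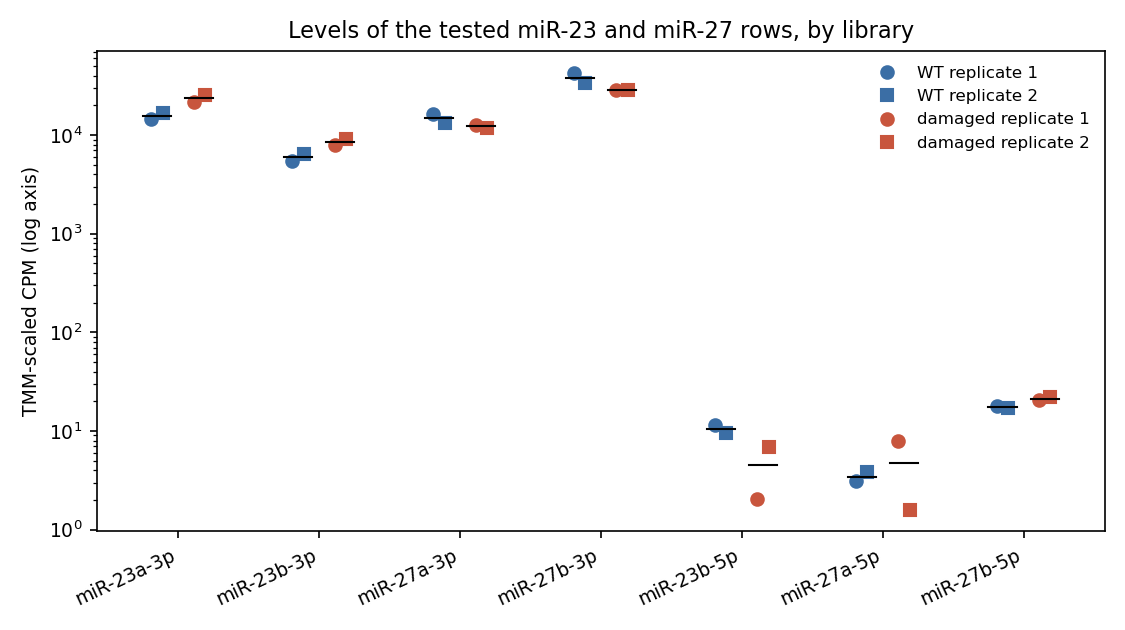
TMM-scaled CPM on a log axis for the 7 tested rows, with WT libraries in blue and damaged libraries in red (circles for replicate 1, squares for replicate 2) and a line at each group mean (n = 2). The miR-23 3p rows are higher and the miR-27 3p rows lower in both damaged libraries, and the 5p rows lie near or below 22 CPM.

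No row of the family passed the test at the 0.05 threshold. edgeR called 0 of the 7 tested rows, against 9.51% of all 536 tested rows (4.1% higher and 5.41% lower), and 3 of the 7 (miR-23a-3p, miR-23b-3p and miR-27b-3p) had an unadjusted p under 0.05, against 30.8% of all. The other 5 rows of the 12 were not tested, since the 4 miR-24 rows could not be measured and miR-23a-5p held 1 count. Damaged and WT libraries did not overlap in 6 of the 7 rows, 3 higher and 3 lower, but this was so for 59.9% of all tested rows (29.1% higher and 30.8% lower). The median log2 fold change was 0.28 over the tested members and 0.02 over all tested rows. The former is the value of the scarce miR-27b-5p, and the members lay on both sides of 0. DESeq2 called miR-23a-3p, miR-23b-3p and miR-27b-3p (adjusted p = 0.00535, 0.0154 and 0.0459), and limma-voom called miR-23a-3p and miR-23b-3p (adjusted p = 0.0299 and 0.0433). These tools also called more of all 536 tested rows, 109 by DESeq2 and 79 by limma-voom, against 51 by edgeR. The ranges that follow cover every alternative setting on all 4 libraries, DESeq2 and limma-voom included. For miR-23a-3p the adjusted p ran from 2.95e-05 to 0.116 and passed in 6 of 12. For miR-23b-3p it ran from 0.000381 to 0.162 (passed in 5 of 10), and for miR-27b-3p from 0.00397 to 0.144 (2 of 12). The lowest value of each came from edgeR with the replicate block, which treats same-numbered libraries as pairs, a pairing that was not established. miR-27a-3p passed in none of its 12 (0.108 to 0.486). The 4 rows kept their direction in each of these settings and without any 1 library.

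**Figure D3:**
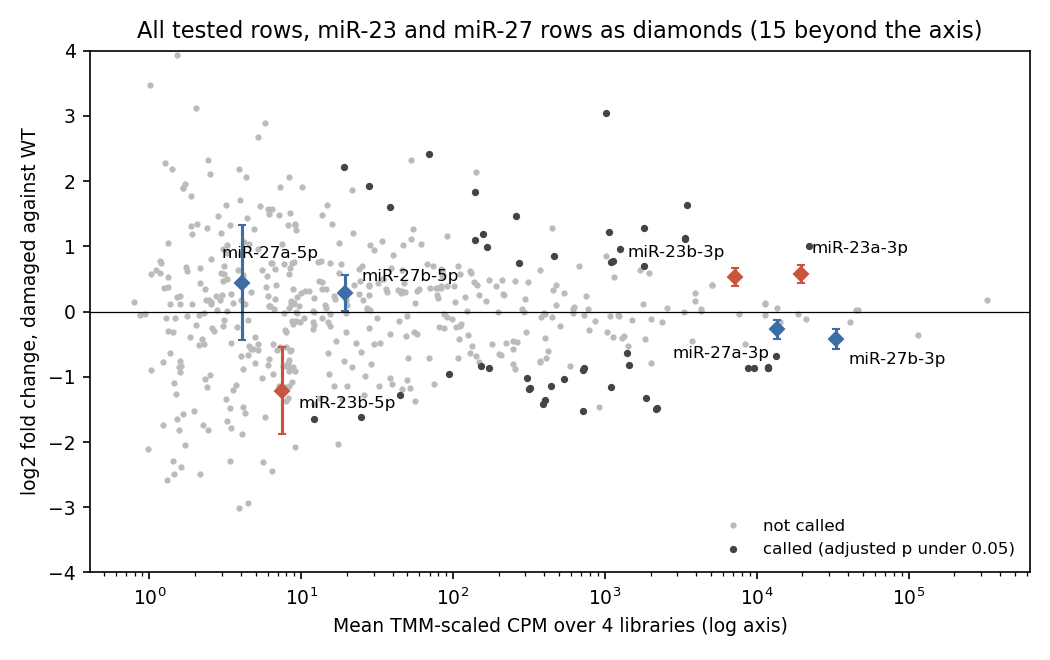
Mean TMM-scaled CPM over 4 libraries (log axis) against the log2 fold change of damaged against WT for the 536 tested rows, called rows in black and others in grey, with miR-23 rows as red and miR-27 rows as blue diamonds (bars, SE). The miR-23 3p rows lie at 0.58 and 0.52 and the miR-27 3p rows at -0.27 and -0.42, and 15 rows lie beyond the axis.

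**Figure D4:**
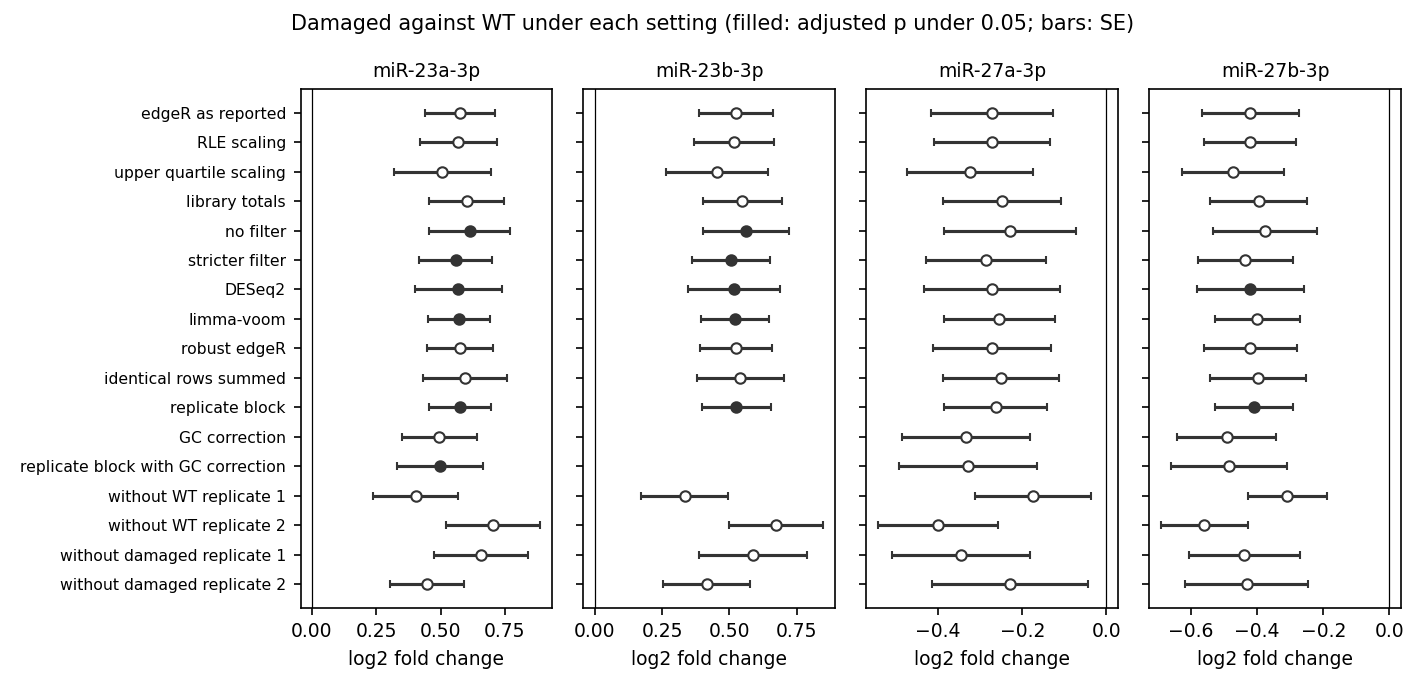
log2 fold change of damaged against WT (x axis; bars, SE) for the 4 abundant rows under edgeR as reported and under each other setting (y axis), filled where the adjusted p was under 0.05. The points of each row stay on one side of 0, and miR-27a-3p has no filled point.

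Ratios between members, which do not depend on how the libraries are scaled, show the same split within each cluster. These ratios were chosen after the values had been seen, and they restate the levels above without adding independent support. On chromosome 8 the ratio of miR-23a-3p to miR-27a-3p counts was 0.888 in WT replicate 1, 1.28 in WT replicate 2, 1.69 in damaged replicate 1 and 2.14 in damaged replicate 2. On chromosome 13 the ratio of miR-23b-3p to miR-27b-3p was 0.127 and 0.192 in WT replicates 1 and 2 and 0.279 and 0.319 in damaged replicates 1 and 2. At neither locus do the groups overlap, and on the log2 scale the mean differences were 0.84 and 0.93, or 1.79-fold and 1.91-fold. The WT libraries differed from each other by 1.44-fold and 1.51-fold in these ratios, against 1.32-fold and 1.46-fold between the highest WT and the lowest damaged library. The exact two-sided permutation test gave 0.333 for each, the smallest p this design allows.

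The balance between paralogs moved far less in size, by 1.04-fold for miR-23a-3p to miR-23b-3p and 0.904-fold for miR-27b-3p to miR-27a-3p. The miR-23a row held 72.9% of the miR-23-3p reads of WT replicate 1 (exact 95% interval 72.6 to 73.1) and 72.3% of those of WT replicate 2 (72.1 to 72.5). For damaged replicates 1 and 2 the shares were 73.0% (72.8 to 73.2) and 73.5% (73.3 to 73.7), so that the groups lie side by side with a difference in means of 0.673 percentage points. Of all miR-27-3p counts, the miR-27a row held 27.8% and 28.1% in WT replicates 1 and 2 and 30.9% and 29.3% in damaged replicates 1 and 2, a difference in means of 2.09 percentage points. Both shares were higher in both damaged libraries, with an exact two-sided permutation p of 0.333 for each. miR-23 was thus counted mostly from the chromosome 8 row and miR-27 mostly from the chromosome 13 row, in every library.

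**Figure D5:**
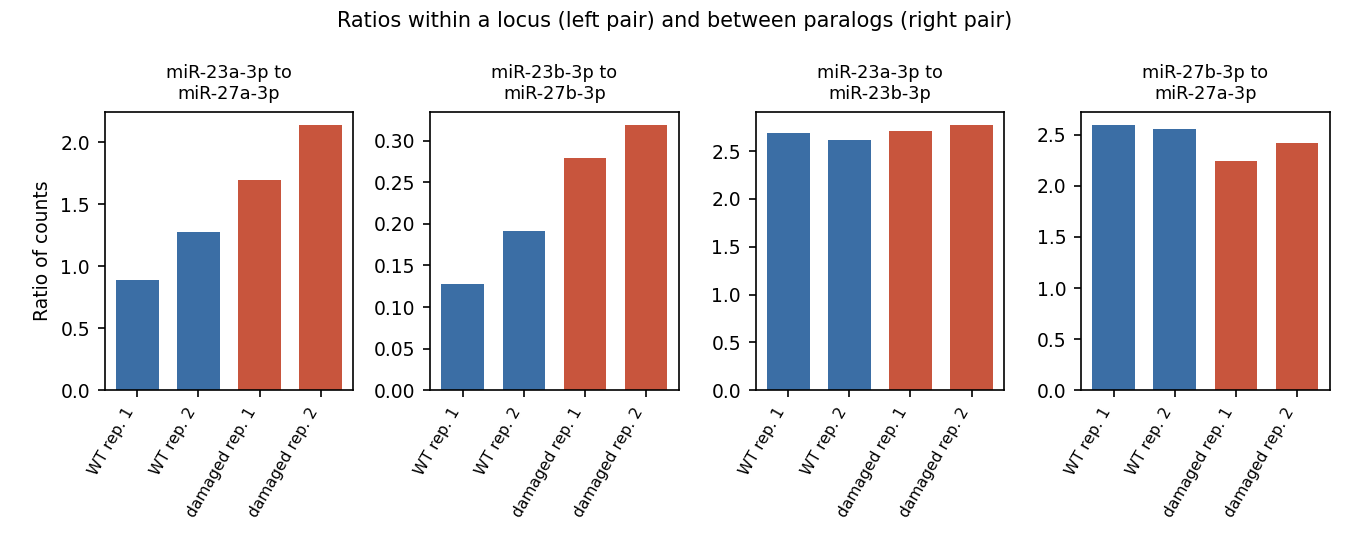
Ratios of counts in each library (bars from 0; WT blue, damaged red), on the left for miR-23 to miR-27 within each locus and on the right for the paralogs. The within-locus ratios are higher in both damaged libraries (0.279 and 0.319 against 0.127 and 0.192 on chromosome 13), while miR-23a-3p to miR-23b-3p runs from 2.62 to 2.78.

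The 5p arms were scarce in every hairpin that could be read. miR-27b-5p held 81 and 129 counts in WT replicates 1 and 2 and 140 and 165 counts in damaged replicates 1 and 2. That is 0.0418% and 0.0506% of the counts of its hairpin in WT (exact 95% intervals 0.0332 to 0.0519 and 0.0422 to 0.0601) and 0.0715% and 0.0768% in damaged (0.0602 to 0.0844 and 0.0655 to 0.0895), so the share was higher in both damaged libraries (exact two-sided permutation p = 0.333), with a log2 fold change of its level of 0.28 ± 0.28 (SE; edgeR adjusted p = 0.545). miR-23b-5p held 52 and 72 counts in WT and 14 and 52 counts in damaged, or 0.210% and 0.147% of its hairpin in WT (exact 95% intervals 0.157 to 0.276 and 0.115 to 0.185) and 0.0256% and 0.0758% in damaged (0.0140 to 0.0430 and 0.0566 to 0.0994; exact permutation p = 0.333). Its log2 fold change was -1.22 ± 0.67 (SE; edgeR adjusted p = 0.287), -0.62 without damaged replicate 1 and -2.36 without damaged replicate 2. miR-27a-5p held 14 and 29 counts in WT and 54 and 12 counts in damaged, with overlapping groups. Its log2 fold change of 0.44 ± 0.88 (SE; edgeR adjusted p = 0.820) turned to -1.14 without damaged replicate 1. miR-23a-5p had 1 count, in damaged replicate 2, beside 190185 counts of miR-23a-3p in that library. For miR-27b-5p and miR-23b-5p the counting intervals of the share do not overlap between the groups. Those of miR-27b-5p nearly touch, at 0.0601 for WT replicate 2 and 0.0602 for damaged replicate 1. The intervals cover counting error only, and 2 libraries a group give little measure of the spread between libraries.

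The tested rows with at least 100 CPM on average were ranked by the root mean square distance of their centred log2 CPM from miR-23a-3p over the 4 libraries. The closest of 158 rows was its paralog miR-23b-3p (distance 0.0306), followed by miR-191-5p (0.0673) and miR-128-3p of Mir128-2 (0.0746). miR-191-5p stood at 1339 and 1433 CPM in WT and 2075 and 2408 CPM in damaged, and it was called higher by edgeR (adjusted p = 0.0356). The cluster neighbours miR-27a-3p and miR-27b-3p came in places 94 and 105. For miR-27b-3p the closest rows were miR-741-3p (0.0264), miR-1198-5p (0.0272) and miR-139-5p (0.0536), with miR-27a-3p in place 5 (0.0832). These distances describe 4 libraries and share their scaling.

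Other miRNAs known from muscle cells gave a mixed picture beside the family. Of 36 tested rows of that list, 5 rose and 4 fell in damaged, 27 did not pass edgeR's test, and the median log2 fold change was 0.04 (0.02 over all tested rows, of which 4.1% rose and 5.41% fell). Rows that share 1 mature sequence count separately here. The rows that rose were miR-133b-3p and the paired rows of miR-133a-3p, muscle miRNAs, with log2 fold changes of 1.12 to 1.22, and both copies of miR-125b-5p (0.78 and 0.75; edgeR adjusted p = 0.00914 to 0.0305 over the 5). Those that fell were miR-322-5p (-1.33), miR-182-5p (-1.03) and both copies of miR-199a-3p (-0.87 and -0.86; edgeR adjusted p = 0.0181 to 0.0305 over the 4). The most abundant were miR-206-3p at 290240 to 357580 CPM (log2 fold change 0.18, edgeR adjusted p = 0.334) and miR-21a-5p at 80674 to 138820 CPM (-0.35, adjusted p = 0.331).

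Among 24 rows of other miRNA families with paralogous members, 1 rose and 4 fell, with a median of -0.14, against 4.1% and 5.41% of all tested rows and a median of 0.02. miR-212-3p rose (log2 fold change 1.19, edgeR adjusted p = 0.0335), while miR-15b-5p (-1.52, adjusted p = 0.00914) and miR-199b-3p and the pair of miR-199a-3p rows, whose sequence is the same in all 3, fell (-0.86 to -0.87, adjusted p = 0.0305). The miR-199 rows were also the most abundant there, at 7898 to 17155 CPM each. Since these 3 rows share 1 sequence, the level of a single row is not that of the sequence, and it is not ranked beside the family. Both lists overlap, and no test compared either with the family.

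The muscle label was met by the counts. The summed level of miR-206-3p, miR-133a-3p, miR-133b-3p and miR-1a-3p was 298700 to 335200 CPM in WT and 357000 to 372100 CPM in damaged. Most of that sum was miR-206-3p (290240 to 357580 CPM), which did not pass edgeR's test (adjusted p = 0.334). Of these 6 rows 1, miR-1a-3p of Mir1a-2, was at 0 and shares bases with an opposite-strand entry. The endothelial markers miR-126a-3p and miR-126a-5p were at 0, but both rows share bases with an opposite-strand entry, so an endothelial source could not be checked. Of the 6 blood cell marker rows 5 were tested and none passed edgeR's test, with summed levels of 1526 and 1745 CPM in WT and 1450 and 1557 CPM in damaged. Most of that sum was miR-451a, at 1386 to 1683 CPM over the libraries. The untested row, miR-142a-3p, and the liver marker miR-122-5p were at 0, and both share bases with an opposite-strand entry. The epithelial markers summed to at most 12.2 CPM in any library. The neural markers summed to 573 and 669 CPM in WT and 911 and 1190 CPM in damaged, with 5 of 7 rows at 0, all 5 of them overlapping an opposite-strand entry. Of the pair of neural rows tested, both miR-128-3p, the Mir128-1 row rose (log2 fold change 0.85, edgeR adjusted p = 0.0460) and the Mir128-2 row, of the same sequence and among those most like miR-23a-3p, had 0.64 (adjusted p = 0.0948). Their sum did not pass (0.78, edgeR adjusted p = 0.0673). Bovine miRNAs from the serum that match these sequences would be counted as mouse. The part of these sources in the miR-23 and miR-27 levels was not tested.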

How the data were processed

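The authors deposited raw counts for each mature miRNA entry, 1 column for each of 4 libraries. The submitters' processing notes list FastQC, BWA, featureCounts and the build mm10. Reads were assigned to miRNA features by featureCounts 2.0.1, per the file headers, with no option for strand, multi-mapping or multiple overlaps. No source used here states the BWA version, the trimming or the miRBase release. Rows were named by position from RefSeq (1734 rows) or GENCODE vM21 hairpins (364 rows); 12 stayed unnamed. edgeR 4.0.16 in R 4.3.3 (quasi-likelihood test, TMM scaling, filterByExpr minimum count 10, group as the only term) tested 536 rows, with Benjamini-Hochberg adjustment over all of them. The SE is the log2 fold change divided by the square root of F. Summed pairs replaced their rows in a refit of the whole table. Count shares have exact Clopper-Pearson intervals, which cover counting error only, and group differences in shares and ratios were tested by exact permutation (SciPy 1.17.1). DESeq2 1.42.0, limma 3.58.1 voom and other scalings, filters and library sets were alternatives. The scripts were tested on simulated data. Every row of the family is reported. The other named rows are the 3 most alike to miR-23a-3p and to miR-27b-3p, and from each list the most abundant 2 and those called. The members and lists were chosen with earlier results of these data known.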

Additional observations from a re-analysis of the deposited data

How the results depend on the processing

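The number of called rows depended on the setting. edgeR as reported called 51 of 536 rows. The count was 77 with upper quartile scaling, 131 with no filter, 91 with the stricter filter of 10 CPM in at least 2 libraries, 109 with DESeq2, 79 with limma-voom, 127 with the replicate block, 25 with a correction for GC content, 87 with the replicate block and GC correction, and 0 to 30 when leaving out each replicate in turn. It was 30 without damaged replicate 2 and 0 without any other library (103 to 144 rows with an unadjusted p under 0.05 by edgeR). Called rows of the family, with the calls over all tested rows in brackets, went from 0 (51 of 536) to 2 with no filter (131 of 1001). They numbered 2 with the stricter filter (91 of 318), 3 with DESeq2 (109 of 536) and 2 with limma-voom (79 of 536). The replicate block gave 3 (127 of 536), and the replicate block with GC correction gave 1 (87 of 446). Summed miR-23-3p passed with no filter (log2 fold change 0.63), the stricter filter (0.56), DESeq2 (0.56) and the replicate block (0.54), and summed miR-27-3p with the replicate block (-0.39). miR-27a-5p turned sign with limma-voom (-0.083) and without damaged replicate 1, leaving out 1 library giving -1.14 to 1.17. The cause of these shifts was not tested. Of 108 values for single rows of the family, 93 kept direction and side of the threshold, 13 passed it and 2 turned sign. Leaving out 1 library gave 0.40 to 0.71 for miR-23a-3p, -0.56 to -0.31 for miR-27b-3p, and 0.57 to 1.10 (chromosome 8) and 0.64 to 1.23 (chromosome 13) for the log2 ratio of miR-23 to miR-27; such a fit assumes that the lone library varies like the other group. Same-numbered libraries did not deviate together (r = 0.00316 over tested rows). With 2 libraries a group, this correlation cannot decide whether the numbers pair them. Where no RefSeq sequence was matched, as for miR-23b-3p and thus summed miR-23-3p, the GC correction gave no value. Summed miR-24-3p gave none, since its rows hold 0 counts.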
